A study of Mus musculus with 6 samples.

Results

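The expression of 10 nuclear genes that shape mitochondria was followed in gastrocnemius muscle of 20-month-old mice: Mfn1, Mfn2, Opa1, Oma1, Dnm1l, Fis1, Mff, Mief1, Immt and Chchd3. They were taken by gene symbol from count tables of 23282 rows, and all 10 were found and passed the filter on low counts, among 11700 genes tested. The inotodiol group was 3 aged male WT C57/BL6J mice that received inotodiol, a triterpenoid of the chaga mushroom, by mouth each day for 10 weeks at 0.35 mg/kg. The vehicle group was 3 male mice of the same age, strain and genotype that received the carrier alone, a mix of polyethylene glycol (40%), Tween 80 (5%) and saline (0.9%). No young or untreated mice are among these samples, so the comparison is of inotodiol with vehicle at 1 age. The series title places the study in muscle wasting with age and mitochondrial function, and the comparison asks whether transcripts of the fusion, fission and cristae machinery differed with treatment.

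Mitochondria of muscle fibres form a network that is remodelled by fusion and fission. Mitofusins join the outer membranes of neighbouring organelles and OPA1 joins the inner ones, while the protease OMA1 cuts OPA1 when the inner membrane loses its potential. In fission the GTPase DRP1, encoded by Dnm1l, is recruited from the cytosol by receptors in the outer membrane and constricts the organelle. Cristae, the folds that carry the respiratory chain, are held open at their necks by the MICOS complex, whose core includes the products of Immt and Chchd3. Much of the control of these proteins is by cleavage and phosphorylation, which read counts per gene do not measure. Splice forms of Opa1 are also not separated in these counts.

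Libraries held from 8961893 to 9953764 counts. Markers of skeletal muscle were abundant, the 9 muscle fibre genes together taking from 153008 to 168400 CPM (counts per 1000000 counts of the library). Transcripts of other tissues and cell types also varied. All 9 hepatocyte markers tested had a log2 fold change above 0, and their summed level was 595, 249 and 92.4 CPM in inotodiol libraries 1 to 3, against 15.5, 81.0 and 52.9 CPM in vehicle libraries 1 to 3. The ribosomal RNA precursor Rn45s took 10.2%, 9.56% and 4.33% of counts in inotodiol libraries 1 to 3, against 3.97%, 6.82% and 4.38% in vehicle libraries 1 to 3. The 8 macrophage markers summed to 177, 59.4 and 110 CPM with inotodiol and 128, 101 and 265 CPM with vehicle, and the 5 Schwann cell markers to 91.5, 88.5 and 190 CPM with inotodiol and 87.3, 68.2 and 97.4 CPM with vehicle. The groups overlapped in both of these sums. All 6 matrix fibroblast genes had a log2 fold change below 0, and their sum was 954, 879 and 1149.1 CPM with inotodiol, against 1044.6, 1112.5 and 2009.4 CPM with vehicle. All 5 erythroid genes were above 0, summing to 7638, 13980.2 and 4373.7 CPM with inotodiol, against 7963.6, 5750.7 and 5610.2 CPM with vehicle. The 5 exocrine pancreas genes summed to 32.5 CPM in inotodiol 1, against 0.105 to 1.04 CPM in the other 5 libraries. The part of these transcripts in the values below was not tested. In bulk muscle, fewer cells of a type and less RNA per cell cannot be told apart.

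No member passed the adjusted test, at a threshold of 0.05. In edgeR's quasi-likelihood test the adjusted p of the 10 genes ran from 0.962 to 0.998, and 0% of the 11700 genes tested were called. At an unadjusted p under 0.05 there was 1 member of 10, Opa1, where 4.87% of all genes tested were at that level and 2.67% were so on the higher side. DESeq2 and limma-voom also called 0 members, each with 1 at an unadjusted p under 0.05. Of the 10 log2 fold changes 6 were above 0, against 49.9% of all genes. Their median was 0.069, against -0.00073 over all genes tested. In the same fit the 9 muscle fibre genes had a median of 0.15, with 7 above 0. The 9 fast fibre genes, some of them in that list too, had a median of 0.071, with 9 above 0. The 7 slow fibre genes had a median of 0.0064, with 4 above 0. Any link of the members with these lists was not tested. The groups did not overlap for 2 members, Opa1 and Fis1, both higher with inotodiol, where 10.4% of all genes did not overlap and 5.15% did so on the higher side. That count lies above both shares, but 10 members are too few to tell it from the background, and it was not tested. The median standard error of a member's log2 fold change was 0.15, against 0.28 over all genes. For the 4991 genes in the same range of CPM it was 0.186, so the gap was smaller among genes of like level.

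**Figure D1:**
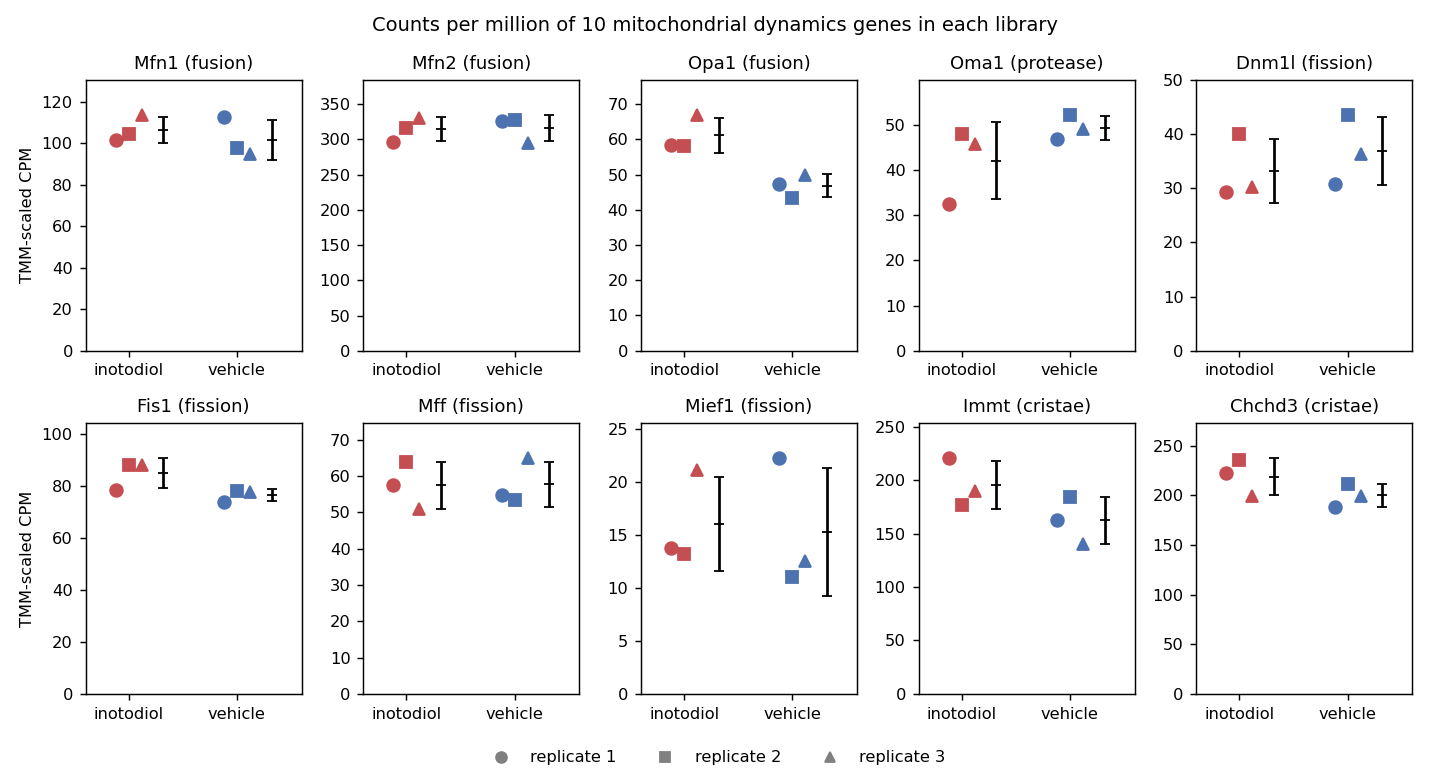
TMM-scaled CPM (vertical axes, from 0) of each member in the 3 inotodiol libraries (red) and the 3 vehicle libraries (blue), with the replicate number as the marker shape and the group mean and SD in black. Opa1 lay between 58.3 and 66.9 CPM with inotodiol, above the 43.4 to 49.99 CPM of vehicle, while Mfn2 and Mff had nearly equal group means.

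Stretches of sequence before or across the annotated transcription starts are shown for 6 members, because 2 recurring motifs were found in them. The sequences are RefSeq's for GRCm38.p6, read 5′ to 3′ on the strand of the gene. Windows of 300 bases were searched on both strands, 250 before and 50 after each start, with 15 windows for the 10 members, some of which overlap. The member windows had a median GC content of 59.3%, against 52.7% over all windows, which bears on counts of GC-rich motifs. The palindrome bound by nuclear respiratory factor 1 (NRF1), a regulator of genes for mitochondrial proteins, was searched as GCGCA and GCGC with 1 free base between them. It was held by 3 of the 15 member windows, those of Opa1, Oma1 and Immt, and by 4.6% of all 32851 windows. Counted from the RefSeq start, it began 59 bases before in Opa1 and 23 bases before in Oma1, and at base 2 of the transcript in Immt. The start in GENCODE, whose gene coordinates are given with the values, is the same for Opa1 but 34 bases further upstream for Oma1 and 11 bases further downstream for Immt. By that annotation the motif began at base 12 of Oma1, with the whole printed stretch inside its exon, and 10 bases before Immt. Capitals mark it in these 3 stretches, the first reaching from 250 bases to 1 base before the start and the other 2 cut to 30 bases. In Oma1 and Immt the match is on the opposite strand, so the capitals read GCGC, 1 free base and TGCGC.
Opa1, plus strand, chr16:29579084-29579333: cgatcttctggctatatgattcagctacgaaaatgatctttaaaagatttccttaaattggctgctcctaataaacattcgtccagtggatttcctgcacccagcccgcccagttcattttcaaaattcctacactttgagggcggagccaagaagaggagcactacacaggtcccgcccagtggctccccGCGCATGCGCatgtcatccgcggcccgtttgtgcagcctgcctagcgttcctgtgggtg
Oma1, plus strand, chr4:103313813-103313842: ggaaaggtgtGCGCCTGCGCggagccggct
Immt, plus strand, chr6:71831310-71831339: gggaggaggcgGCGCGTGCGCagtggtgcc

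The other motif, known for the zinc finger factor ZNF143 (STAF), was searched as ACTACA and TCCC with 2 free bases between them, after the letters of these promoters had been seen. It was held by 4 of the 15 member windows, those of Mfn2, Dnm1l and Chchd3, and by 1.81% of all windows. The same site of Mfn2 lay in overlapping windows and was counted in each. Because the motif was chosen from these same letters, the contrast with all windows is no test of enrichment. The motif began 38 bases before the most upstream RefSeq start of Mfn2 and 35 bases before that of Dnm1l, or 243 and 107 bases before their GENCODE starts. Chchd3 held it at 2 places, the first 238 bases before the start in both annotations. Capitals mark it below.
Mfn2, minus strand, chr4:147904910-147905009: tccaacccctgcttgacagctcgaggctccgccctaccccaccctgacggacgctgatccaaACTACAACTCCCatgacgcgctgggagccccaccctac
Dnm1l, minus strand, chr16:16359032-16359131: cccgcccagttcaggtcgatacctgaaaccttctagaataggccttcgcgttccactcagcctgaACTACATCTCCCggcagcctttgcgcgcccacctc
Chchd3, minus strand, chr6:33060361-33060510: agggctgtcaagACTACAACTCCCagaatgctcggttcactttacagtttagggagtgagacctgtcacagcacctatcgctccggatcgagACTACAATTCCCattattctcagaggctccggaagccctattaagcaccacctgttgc

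The estrogen-related receptor element TCAAGGTCA, the nuclear receptor half-site AGGTCA that lies within it, and the DR4 element of the liver X receptors, that half-site repeated with 4 free bases between, were in none of the member windows. Over all windows 0.423% held the first, 16.3% the half-site and 0.0152% the DR4 element, so the absence of the longer letters is what most windows show. A CCAAT box (CCAAT) was found in 7 of the 15 member windows and in 37.4% of all windows, and a GC box (GGGCGG) in 11 of the 15 and in 35.7% of all windows. These matches are letters in a window, and binding was not measured here.

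Among the fusion genes, Opa1 differed most between the groups. Opa1, the dynamin-like GTPase of inner membrane fusion and cristae shape (chromosome 16, 29579334 to 29654884, GRCm38), had 538, 525 and 653 counts in inotodiol libraries 1 to 3, against 449, 402 and 509 in vehicle libraries 1 to 3. Scaled with TMM, which sets libraries against each other by their bulk of genes so that a few very abundant ones weigh little, these were 58.4, 58.3 and 66.9 CPM with inotodiol, against 47.3, 43.4 and 49.99 CPM with vehicle. All 3 treated muscles lay above all 3 controls, in raw counts as in CPM. The means were 61.2 ± 4.97 CPM with inotodiol and 46.9 ± 3.31 CPM with vehicle (SD, n = 3 each). The fold was 1.30 with a 95% interval of 1.04 to 1.64, a log2 fold change of 0.38 ± 0.15 (SE), with an adjusted p of 0.962 in edgeR. It was 0.31 without inotodiol replicate 3, the library with the highest value, and 0.34 without vehicle replicate 2. Among inotodiol libraries the hepatocyte sum was lowest in replicate 3 and highest in replicate 1, without which Opa1 stood at 0.417. Any link with Opa1 was not tested.

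Both mitofusins were close to equal in the groups. Mfn1 (chromosome 3, 32529465 to 32579239) had 101, 104 and 114 CPM in inotodiol libraries 1 to 3, against 113, 97.5 and 94.8 CPM in vehicle libraries 1 to 3. Its groups overlapped, with vehicle 1 nearly as high as inotodiol 3, and the log2 fold change was 0.066 ± 0.14. Mfn2, which also tethers mitochondria to the endoplasmic reticulum (chromosome 4, 147873599 to 147904704), had 297, 316 and 331 CPM with inotodiol, against 326, 328 and 294 CPM with vehicle. The means were 314 ± 17.1 CPM with inotodiol and 316 ± 18.6 CPM with vehicle, and the fold was 0.995 with a 95% interval of 0.833 to 1.19. Differences inside that interval could not be resolved with 3 mice a group. In edgeR the adjusted p was 0.989 for Mfn1 and 0.998 for Mfn2.

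Oma1, the stress-activated metalloprotease that cleaves OPA1 (chromosome 4, 103313812 to 103371868), had its lowest value in a treated muscle. It had 299, 433 and 447 counts in inotodiol libraries 1 to 3, against 445, 483 and 499 in vehicle libraries 1 to 3. In CPM these were 32.4, 48.0 and 45.8 with inotodiol and 46.9, 52.1 and 49.0 with vehicle, so the groups overlapped and inotodiol 1 stood apart from the other libraries. The log2 fold change was -0.23 ± 0.18 (adjusted p 0.963 in edgeR). Without inotodiol replicate 1 it was -0.072, so the difference rested mostly on that library. The same library held the highest hepatocyte, exocrine pancreas and Rn45s levels, and any link with Oma1 was not tested.

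The 4 fission genes gave no common direction. Dnm1l, the GTPase that constricts mitochondria (chromosome 16, 16312230 to 16358959), had 29.3, 40.1 and 30.2 CPM in inotodiol libraries 1 to 3, against 30.9, 43.5 and 36.3 CPM in vehicle libraries 1 to 3. The groups overlapped, with replicate 2 highest in each, and the log2 fold change was -0.15 ± 0.20, or -0.011 without vehicle replicate 2. Fis1, a small anchor of the outer membrane implicated in stress-related fission (chromosome 5, 136953275 to 136966234), had 78.3, 88.2 and 88.2 CPM with inotodiol, against 73.7, 78.0 and 77.8 CPM with vehicle. The Fis1 groups were parted only by inotodiol 1 lying just above vehicle 2, and the log2 fold change was 0.15 ± 0.14 with a 95% interval of -0.15 to 0.45. Both genes were far from the threshold in edgeR, with adjusted p of 0.989 for Dnm1l and 0.969 for Fis1.

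The receptors that bring DRP1 to the outer membrane were likewise not separated. Mff, the mitochondrial fission factor (chromosome 1, 82724890 to 82752394), had 57.5, 63.8 and 51.0 CPM in inotodiol libraries 1 to 3, against 54.8, 53.4 and 64.9 CPM in vehicle libraries 1 to 3. Its means were 57.4 ± 6.38 CPM with inotodiol and 57.7 ± 6.28 CPM with vehicle, with a fold of 0.995 (95% interval 0.784 to 1.26). Mief1, which encodes the adaptor MiD51 (chromosome 15, 80234018 to 80253371), was the least abundant member. It had 127, 119 and 206 counts with inotodiol, against 211, 102 and 128 counts with vehicle, so 1 library in each group stood high. Its values varied 2.02-fold between the lowest and highest library in CPM, and its log2 fold change was 0.072 ± 0.30. Counting error at its mean count was 8.20% of the value, against coefficients of variation of 27.5% with inotodiol and 39.8% with vehicle, so most of that spread lay between libraries.

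The cristae genes were higher on average with inotodiol, within the spread of mice. Immt, which encodes mitofilin (MIC60), the MICOS subunit that bends the membrane at crista junctions (chromosome 6, 71831331 to 71877388), had 2031, 1593 and 1852 counts in inotodiol libraries 1 to 3, against 1548, 1703 and 1430 in vehicle libraries 1 to 3. In CPM these were 220.4, 177 and 189.8 with inotodiol and 163, 184 and 140.4 with vehicle. The groups overlapped through inotodiol 2 and vehicle 2 alone. The means were 196 ± 22.4 CPM with inotodiol and 162 ± 21.7 CPM with vehicle, with a fold of 1.20 (95% interval 0.971 to 1.49) and an adjusted p of 0.962 in edgeR. Chchd3, which encodes MIC19 and binds mitofilin (chromosome 6, 32790976 to 33060260), had 222, 235 and 199 CPM with inotodiol, against 188, 211 and 199.7 CPM with vehicle. Its groups overlapped, with inotodiol 3 as low as vehicle 3, and its log2 fold change was 0.13 ± 0.13. Immt and Chchd3 did not share their highest library, which was inotodiol 1 for Immt and inotodiol 2 for Chchd3. Inotodiol 1 also held the highest hepatocyte, exocrine pancreas and Rn45s levels. The log2 fold change of Immt was 0.27 with all libraries, 0.175 without inotodiol replicate 1 and 0.174 without vehicle replicate 3. Any link of Immt with those levels was not tested.

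**Figure D2:**
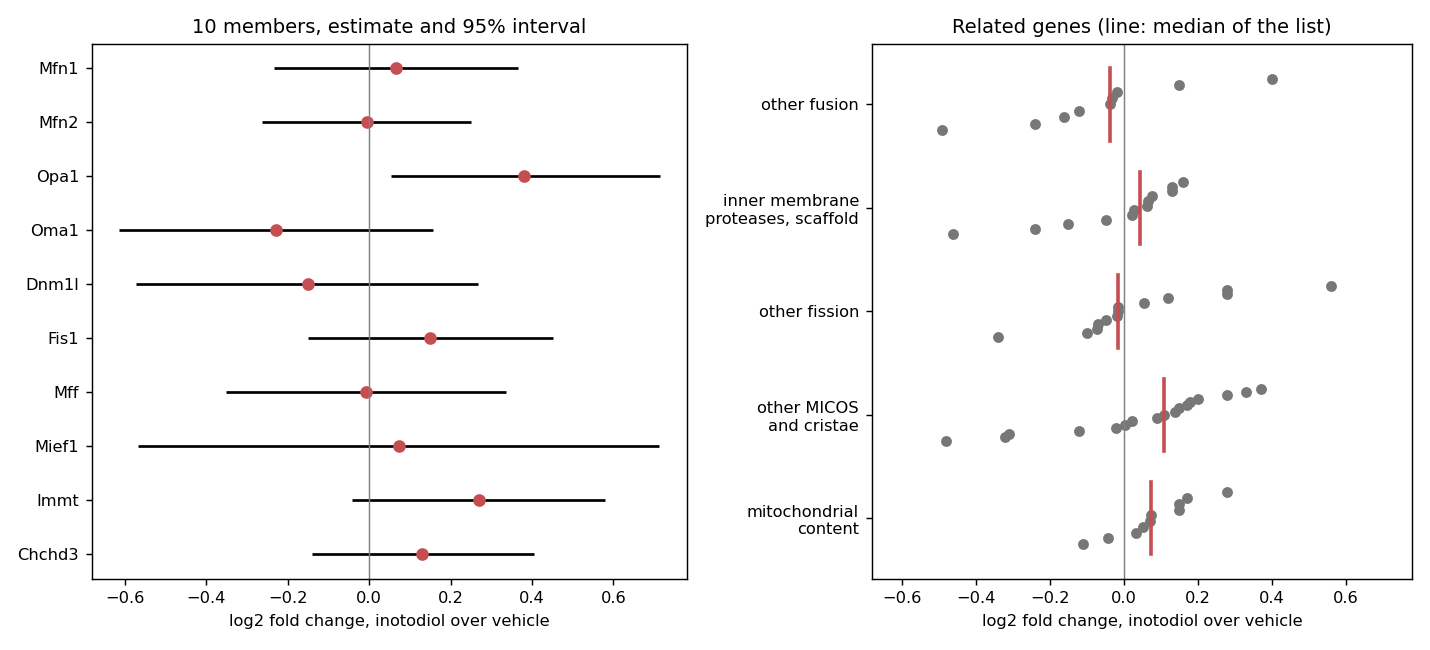
Left, log2 fold change of inotodiol over vehicle for each member (points) with its 95% interval (bars); right, log2 fold changes of related genes (grey points) by list, with the list median as a red line. The interval of Opa1, 0.053 to 0.71, is the only one of the 10 that leaves out 0 before adjustment, and the list medians lie between -0.036 and 0.11.

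Ratios of counts between members of the same library do not depend on how libraries are scaled. Opa1 to Oma1 was 1.80, 1.21 and 1.46 in inotodiol libraries 1 to 3, against 1.01, 0.832 and 1.02 in vehicle libraries 1 to 3. The ratio was thus above every control in each treated muscle, with means of 1.49 ± 0.295 with inotodiol and 0.954 ± 0.105 with vehicle (SD, n = 3 each). Mfn2 to Mfn1 was 2.92, 3.03 and 2.91 with inotodiol and 2.89, 3.36 and 3.11 with vehicle, so the balance of the mitofusins overlapped. Immt to Chchd3 was 0.991, 0.751 and 0.954 with inotodiol and 0.866, 0.870 and 0.703 with vehicle, and Dnm1l to Fis1 was 0.374, 0.454 and 0.343 with inotodiol and 0.419, 0.558 and 0.467 with vehicle; both pairs overlapped. Of the 45 pairs among the members, which share genes with one another, 8 did not overlap, or 17.8%. Over all pairs of tested genes with a count in every library the share was 10.4%. Opa1 was in 5 of the 8 pairs and Oma1 in 4, the pair of both included.

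Opa1 was also set against every other gene. Its ratio was higher in all 3 inotodiol libraries than in all 3 vehicle libraries for 31.3% of 11453 genes, and lower for 0.471%. In both directions together that was 31.8%, against the 10.4% of all gene pairs. The same share was 14.5% for Immt, 13.9% for Fis1, 13.2% for Oma1 and 11.7% for Chchd3, and between 2.44% and 9.81% for the other 5 members. Most of these ratios were higher with inotodiol for Immt, Fis1 and Chchd3, and lower for Oma1. These shares restate the differences given above in a form that needs no scaling, and add no independent evidence.

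The mean log2 CPM of the fusion genes Mfn1, Mfn2 and Opa1 minus that of the fission genes Dnm1l, Fis1, Mff and Mief1 was 1.71, 1.57 and 1.72 in inotodiol libraries 1 to 3, against 1.55, 1.56 and 1.51 in vehicle libraries 1 to 3. The groups did not overlap, but inotodiol 2 lay only just above vehicle 2. The difference between group means was 0.12 on the log2 scale. Opa1, which is 1 of the 3 fusion genes, had the largest log2 fold change of the 7 genes that enter it. Mfn1 and Mfn2 stood at 0.066 and -0.0067, so on the fusion side the difference rested mostly on Opa1. No test was run on this score, and no share of such scores without overlap was computed over other genes.

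**Figure D3:**
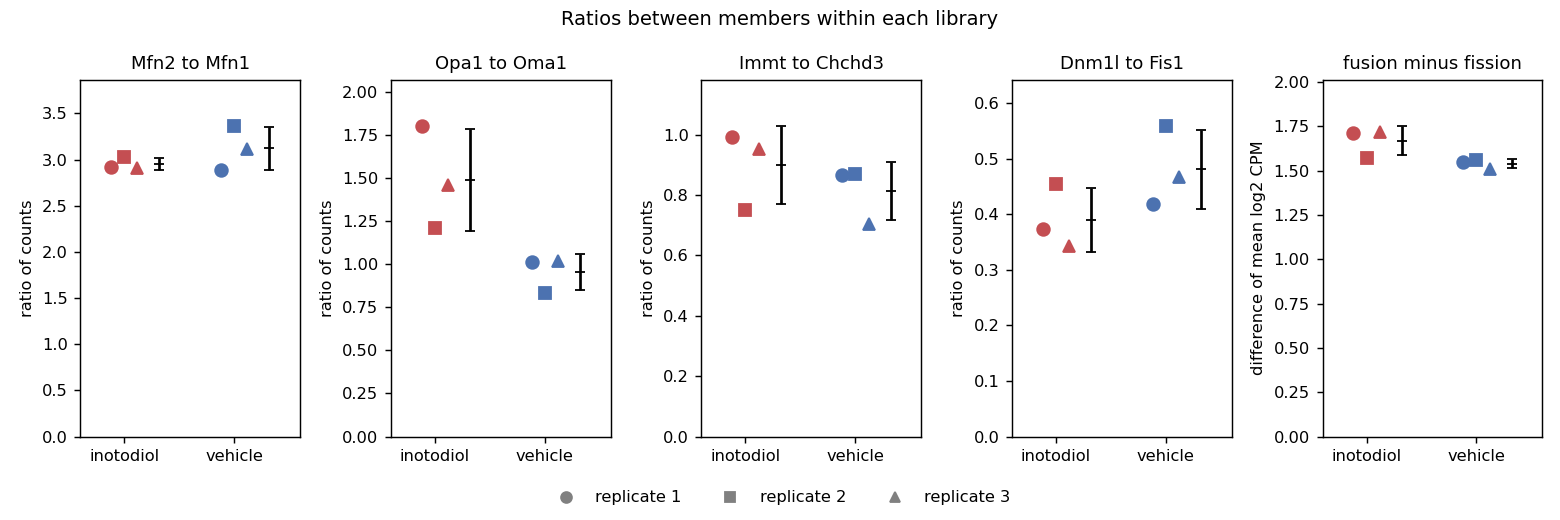
Ratios of counts between pairs of members in each library, and at the right the mean log2 CPM of fusion genes minus that of fission genes; red markers are inotodiol and blue vehicle libraries, with group mean and SD in black. Opa1 to Oma1 spans 1.21 to 1.80 with inotodiol and 0.832 to 1.02 with vehicle, while the other 3 ratios overlap.

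A list of 10 nuclear genes commonly read as mitochondrial content, such as Cs and Vdac1, gave a way to set the members against the amount of mitochondrial transcripts. Of these genes 8 were above 0, with a median log2 fold change of 0.073 and none called. Per 1000 counts of them, Opa1 had 13.6, 12.5 and 13.1 counts in inotodiol libraries 1 to 3, against 9.83, 10.1 and 11.8 in vehicle libraries 1 to 3. Opa1 was the 1 member of 10 whose groups did not overlap on this scale, where 10.2% of all genes tested did not. Fis1 had 18.3, 19.0 and 17.3 with inotodiol and 15.3, 18.1 and 18.4 with vehicle, so its separation in CPM was not kept. Mfn1 was nearly constant, at 23.7, 22.4 and 22.3 with inotodiol and 23.5, 22.7 and 22.4 with vehicle.

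Levels of the members spanned a wide range. Per kilobase of exon in coding transcripts, mean CPM over the 6 libraries was 86.2 for Chchd3, 73.2 for Fis1, 62.1 for Immt and 60.9 for Mfn2. Mff followed with 26.4, Oma1 with 23.9 and Mfn1 with 18.7, and then Opa1 with 8.45, Dnm1l with 7.73 and Mief1 with 2.74 CPM per kilobase. Neighbours in this order overlapped over the libraries except at 3 places, between Mfn2 and Mff, between Mfn1 and Opa1 and between Dnm1l and Mief1. Whether counts rise with transcript length in these libraries was not settled, so the order rests on that assumption. The unit here is a level per length and not a difference between groups.

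The spread between mice differed among the members. The coefficient of variation was 5.43% with inotodiol and 5.89% with vehicle for Mfn2, and 8.12% with inotodiol and 7.06% with vehicle for Opa1. It was larger for Immt, at 11.4% with inotodiol and 13.4% with vehicle, and largest for Mief1. Over the 10 members its median was 9.75% with inotodiol and 8.31% with vehicle, against 14.0% with inotodiol and 12.9% with vehicle for the 4991 genes tested in the same range of CPM. The summed level of the members was 1110.6, 1143.8 and 1136.5 CPM in inotodiol libraries 1 to 3, against 1065.7, 1101.7 and 1020 CPM in vehicle libraries 1 to 3. Inotodiol 3 was the highest library for 4 members, Mfn1, Mfn2, Opa1 and Fis1, and the lowest for Mff.

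The rest of the pathway was described from lists of related genes, 51 of which passed the filter. None was called, none had an unadjusted p under 0.05 in edgeR, and 27 of 51 log2 fold changes were above 0, with a median of 0.023. The groups did not overlap for 3 higher genes and 1 lower gene. Among all genes tested 4.87% had an unadjusted p under 0.05 in edgeR, and 49.9% of log2 fold changes were above 0. The groups did not overlap for 10.4% of all genes, with 5.15% of all genes higher with inotodiol. The related genes lay below all genes in the share at that p and in the share without overlap in either direction. They did not lie below them on the higher side or in the share above 0.

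Of 9 other genes of fusion and its control 2 were above 0, and the median was -0.036 on the log2 scale. Opa3, a mitochondrial protein gene mutated in human optic atrophy, had 37.1, 37.9 and 23.7 CPM in inotodiol libraries 1 to 3, against 27.1, 25.6 and 22.1 CPM in vehicle libraries 1 to 3, a log2 fold change of 0.40 ± 0.21 with overlapping groups. Msto1 had 3.91, 2.66 and 4.0 CPM with inotodiol and 4.11, 5.72 and 5.01 CPM with vehicle, at -0.49 ± 0.41, and did not overlap at these low levels. March5, a ubiquitin ligase of the outer membrane, stood at -0.16 ± 0.17 and Slc25a46 at -0.12 ± 0.17.

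Of the 12 inner membrane proteases and scaffold genes, 8 were above 0, with a median of 0.045. Htra2, a protease of the space between the membranes, had a log2 fold change of -0.46 ± 0.32 and Afg3l2, a subunit of the matrix-facing AAA protease, of -0.24 ± 0.20. Afg3l2 had 29.4, 31.8 and 46.2 CPM with inotodiol, against 39.0, 49.1 and 39.2 CPM with vehicle, low in 2 treated muscles and not in inotodiol 3. The prohibitin gene Phb2 stood at -0.15 ± 0.14 and Parl, a rhomboid protease, at 0.16 ± 0.15. The partner protease of Oma1 in cutting OPA1, Yme1l1, stood at 0.066.

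Among 13 other fission genes 5 were above 0, with a median of -0.016. Rala, a small GTPase that helps to bring DRP1 to mitochondria in mitosis, had 123, 102 and 116 CPM in inotodiol libraries 1 to 3, against 93.6, 97.6 and 89.5 CPM in vehicle libraries 1 to 3. Its groups did not overlap, and its log2 fold change was 0.28 ± 0.14 at an adjusted p of 0.962 in edgeR. The phosphatase gene Pgam5 stood at -0.34 ± 0.20, Gdap1 at 0.56 ± 0.43 with at most 6.80 CPM in any library, and Fundc1, a mitophagy receptor, at 0.28 ± 0.25.

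Of 17 other genes of MICOS and cristae 12 were above 0, with a median of 0.11. Chchd10, a small protein of the intermembrane space, had 1657.6, 1369.1 and 2026.8 CPM in inotodiol libraries 1 to 3, against 1467, 1370.7 and 1326.6 CPM in vehicle libraries 1 to 3, a log2 fold change of 0.28 ± 0.14 with inotodiol 3 well above the other libraries. Its relative Chchd2 stood at 0.18 ± 0.12. Dnajc11, which is found with MICOS, stood at -0.48 ± 0.26 and Armc1 at 0.20 ± 0.14. The groups of Armc1 did not overlap. The MICOS genes Minos1 (MIC10) and Samm50, the outer membrane partner, stood at 0.0035 and 0.11.

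**Figure D4:**
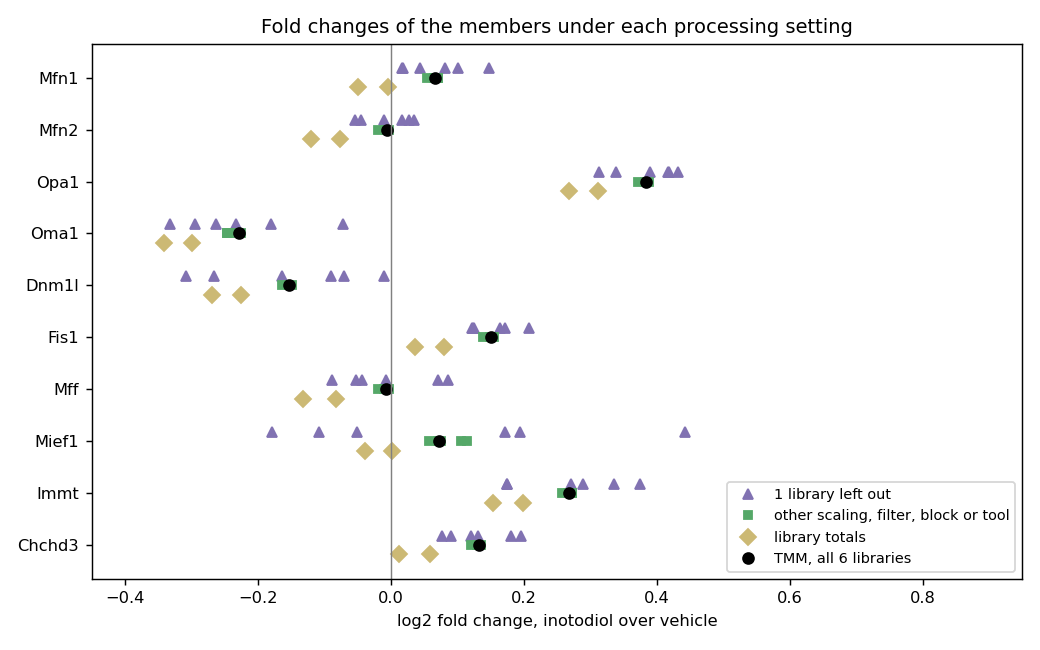
Log2 fold change of inotodiol over vehicle for each member (rows) with all 6 libraries and TMM scaling (black), with 1 library left out (violet), with library totals as the scaling (yellow) and under the other settings (green). Opa1 lies between 0.27 and 0.43 in all 15 alternatives, while Mfn2, Mff and Mief1 fall on both sides of 0, and Mfn1 does so with library totals as the scaling.

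Opa1, Immt, Fis1 and Chchd3 kept a positive log2 fold change, and Oma1 and Dnm1l a negative one, in each of the 15 alternatives run. The range was 0.27 to 0.43 for Opa1, 0.15 to 0.37 for Immt, -0.34 to -0.072 for Oma1 and -0.31 to -0.011 for Dnm1l. For Fis1 it was 0.0356 to 0.207 and for Chchd3 0.0113 to 0.195. Opa1 had an unadjusted p under 0.05 in 10 of the 15, and its smallest adjusted p was 0.837. Scaling by library totals gave 0.268 for Opa1 and 0.153 for Immt, with unadjusted p of 0.152 and 0.335 in edgeR. It also moved the median over all genes to -0.12 on the log2 scale. Relative to that median Opa1 stood at 0.39 and Immt at 0.27, which repeats the centring of TMM and is no separate support. No member was called in any of the alternatives.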

How the data were processed

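Read counts per gene symbol, as deposited by the authors, were analysed for 6 libraries, 3 per group, prepared from total RNA by a Lexogen Quant-Seq kit per the labels' protocols. Bowtie2, bedtools and mm10 are named in the submitters' processing notes; the sources used here do not give versions, annotation, strand setting or how multiply mapping reads were handled. Each table held 23282 rows, 44 of them repeating a symbol. Libraries held from 8961893 to 9953764 counts; at a member's mean count, counting error was from 1.83% (Mfn2) to 8.20% (Mief1) of the value.

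Genes kept by filterByExpr (minimum count 10, minimum total 15) were scaled with TMM and tested in edgeR 4.0.16 (R 4.3.3) with the quasi-likelihood test, two-sided, on group alone, with Benjamini-Hochberg adjustment over all 11700 genes at 0.05. The test was tried on simulated data. Standard errors combine the weights of the fitted model with its moderated quasi-dispersion. Log2 CPM used a prior count of 2. CPM are TMM-scaled except sums of marker lists. The labels mark the samples as biological replicates.

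The members and lists were chosen with earlier results of these data known. All members are named, and up to 4 genes of each related list, those with the smallest p; further genes (Yme1l1, Minos1, Samm50) are named for their role after their values were seen. The alternatives tried were scaling by RLE, upper quartile or library totals, a stricter filter (1 CPM in all 6 samples) or none, the tools DESeq2 1.42.0 and limma-voom (limma 3.58.1), replicate number as block, a 0.10 threshold and leaving out each library. Library totals without Rn45s were chosen after seeing the data.

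Coordinates and exon lengths are from GENCODE M21 (GRCm38, the assembly of mm10). In that annotation exons of Dnm1l, Mff and Immt overlap an antisense gene by 243, 195 and 185 bases and Mief1 a gene of the same strand by 213, so a small part of their reads may belong to these. Of the 50-base windows of the longest coding transcript, from 0% to 7.24% recurred in another gene, and 0% for Mfn2, Opa1, Oma1, Fis1 and Chchd3.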

Additional observations from a re-analysis of the deposited data

How the results depend on the processing

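Of 150 log2 fold changes of members under the alternatives, 139 kept their sign and side of the threshold and 11 changed sign; none was called. With library totals Mfn1 was -0.049 and Mief1 -0.039, and with library totals without Rn45s Mfn1 was -0.0051. These scalings moved the median of all genes to -0.12 and -0.074; relative to it Mfn1 stood at 0.07 under both and Mief1 at 0.08 with library totals. Leaving out 1 library at a time, Mfn2 ran from -0.055 to 0.034, Mff from -0.089 to 0.086 and Mief1 from -0.18 to 0.44. The members' median was -0.044 with library totals and -0.0015 with Rn45s also left out, or 0.08 and 0.07 relative to the median of all genes, against 0.069 with TMM. Values relative to that median repeat the centring of TMM, so they come close to it by construction. The members' median was 0.036 to 0.11 when 1 library was left out. The count of all genes called was 95 with no filter on low counts, 1 with DESeq2 and 0 to 25 when 1 library was left out, the 25 without inotodiol replicate 3; 0 members were called in each. With the replicate number as a block (replicate block) the median was 0.088 and 0 genes were called. Deviations of same-numbered libraries correlated at -0.081, 0.11 and 0.022, against -0.13 to 0.097 for differently numbered ones. With 3 libraries a group these values cannot settle whether the numbers pair the samples, and the labels do not say. The cause of the other moves was not tested. In the main fit no gene passed adjustment over all 11700 genes, whatever the size of its change, Opa1 included. The share of genes with an unadjusted p under 0.05 in edgeR, 4.87%, was near what that threshold gives without any difference. With 3 mice a group and standard errors near 0.15, whether the difference of Opa1 was more than chance could not be told.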
